A study of Mus musculus with 8 samples.

Results

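The 10 genes Tnni2, Acsbg1, Crisp3, Ptgs1, Vipr1, Serpina3f, Hspa12b, Crhbp, Rap1gap and Ebi3 were selected on opposite moves in 2 transductions of mouse pro-B cells, Lin28b in one and let-7b in the other, as measured on the same 8 arrays that are described here. They are 10 of the 22927 genes tested, and 12 of the 28409 probes kept carry their names in the array files. Because their differences with Lin28b and with let-7b chose them, those differences are given as descriptions, with no test.

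Every array held RNA of pro-B cells of BALB/c Rag1 null mice, so the loss of Rag1, a recombinase gene needed to pass the pro-B stage, was common to all 4 groups. Cells were grown on OP9 stromal cells with IL-7, were transduced the next day with 12 wells of a 24-well plate for the virus and 12 for its empty vector, and were sorted for the GFP of the vector 4 days later. The 4 groups were adult bone marrow (BM) cells with Lin28b, adult BM cells with empty vector (pMIG), fetal liver (FL) cells of gestation day 16 with let-7b, and FL cells with empty vector (MSCV). Each group had 2 arrays from separate sorts, a BM sort pooling 2 mice and an FL sort pooling 8 embryos on average. Both transgenes were expressed from retroviruses in culture, so the series measures forced expression and no loss of either factor.

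Lin28b is an RNA-binding protein of fetal and stem cells that keeps let-7 microRNA precursors from being processed. Mature let-7 represses messages that pair with its seed, and in mice Lin28b is active in fetal and let-7 in adult blood formation. The 2 transductions thus act on the same axis from opposite ends. The transduced microRNA is shown because the let-7b comparison rests on it; its mature sequence (RefSeq, GRCm38.p6, chr15:85707325-85707346, plus strand) is written with the seed, bases 2 to 8, in capitals.
let-7b-5p: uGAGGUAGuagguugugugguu

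Each probe is a 60-base oligonucleotide, and its first 30 bases, 5′ to 3′, are shown where the reading of a member turns on the probe. The 2 Vipr1 probes start 2334 bases apart (mouse build mm9, plus strand, chr9:121581964-121582023 for the tested probe and chr9:121579630-121579689 for the other) and gave different answers. The 2 Rap1gap probes (chr4:137285716-137285775 for the tested one and chr4:137285723-137285782 for the other, plus strand) are offset by 7 bases and share 53 of 60, so they are nearly the same measurement; capitals mark the 23 printed bases they share. Hspa12b (chr2:130971553-130971612, plus strand) and Crhbp (chr13:96201903-96201962, minus strand) are shown as the 2 members that limma called with let-7b. Nothing is read from that call, since the same contrast chose the members.
Vipr1, tested probe: ccagttagcagtcctgattccgtcttgaca
Vipr1, other probe: gggcaaggcatcttatgcctccctccatct
Rap1gap, tested probe: ctgtggcCACATGTATGTCAGTAAGGGTTG
Rap1gap, other probe: CACATGTATGTCAGTAAGGGTTGtacaaaa
Hspa12b: gtgggggtttccagctctgccacatatcag
Crhbp: agctggagccatttgagctagaaacctcga

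The arrays differed more between tissues than within them. All 4 BM arrays lay on 1 slide, while replicate 1 of both FL groups lay on slide 2 and replicate 2 on slide 3. In FL the replicate number and the slide thus cannot be told apart. No slide held both tissues, so tissue and slide cannot be told apart either. The 75th percentile of the processed signal was 2074 to 2234 with Lin28b and 1925 to 2137 with empty vector in BM, and 467 to 488 with let-7b and 271 to 485 with empty vector in FL. The low value of 271 belonged to FL empty vector replicate 2, which therefore stands apart in brightness. Replicates lay closer together in BM, where the 2 arrays of a group had a median SD of 0.08 (log2) with Lin28b and with empty vector, than in FL, where it was 0.22 with let-7b and 0.29 with empty vector. The 12 pro-B cell markers read here (Pax5, Ebf1, Vpreb1 and others) were each well above background on some array, with a summed level of 387 to 424 with Lin28b and 436 to 469 with empty vector in BM, and 1048 to 1090 with let-7b and 912 to 1206 with empty vector in FL, in units of the array's 75th percentile. As a check of the transgene, 1 Lin28b probe stood at 0.35 and 0.07 in the transduced cells, while neither BM empty-vector array had it well above background, a difference of at least 121-fold (limma over all kept probes, adjusted p = 0.00174). The other Lin28b probe differed by 0.64 ± 0.28 (SE) in the same contrast, and whether it lies within the transgene is not known here.

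A level below is log2 of the processed signal minus log2 of the array's 75th percentile, so 0 is the level of a fairly bright probe and -4 lies 4 doublings beneath it. A difference is the mean level of the transduced group minus that of its empty vector, with limma's standard error (SE) over all 8 arrays. The fit takes 1 spread per gene for both tissues, so the SE and calls of Lin28b differences also carry the spread of the FL arrays. Groups do not overlap when both arrays of one lie beyond both of the other. All 10 members had opposite signs in the 2 transductions and groups that overlapped in neither, which was the ground of their choice. Of all genes tested, 50.7% had groups that did not overlap with Lin28b, 30.1% with let-7b, and 9.24% had both together with opposite signs. With limma at an adjusted p under 0.05, 0 members were called with Lin28b (background 0%, and 819 genes at an unadjusted p under 0.05), and 2 with let-7b (background 0.0305%, and 2240 genes unadjusted; 0 members with the FL slide as a block, 8 without FL empty vector replicate 1, and 0 without any other single array). Nothing is read from these counts, since the same contrasts chose the members. RNA was taken from populations, so fewer cells of a type and less RNA per cell cannot be told apart.

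**Figure D1:**
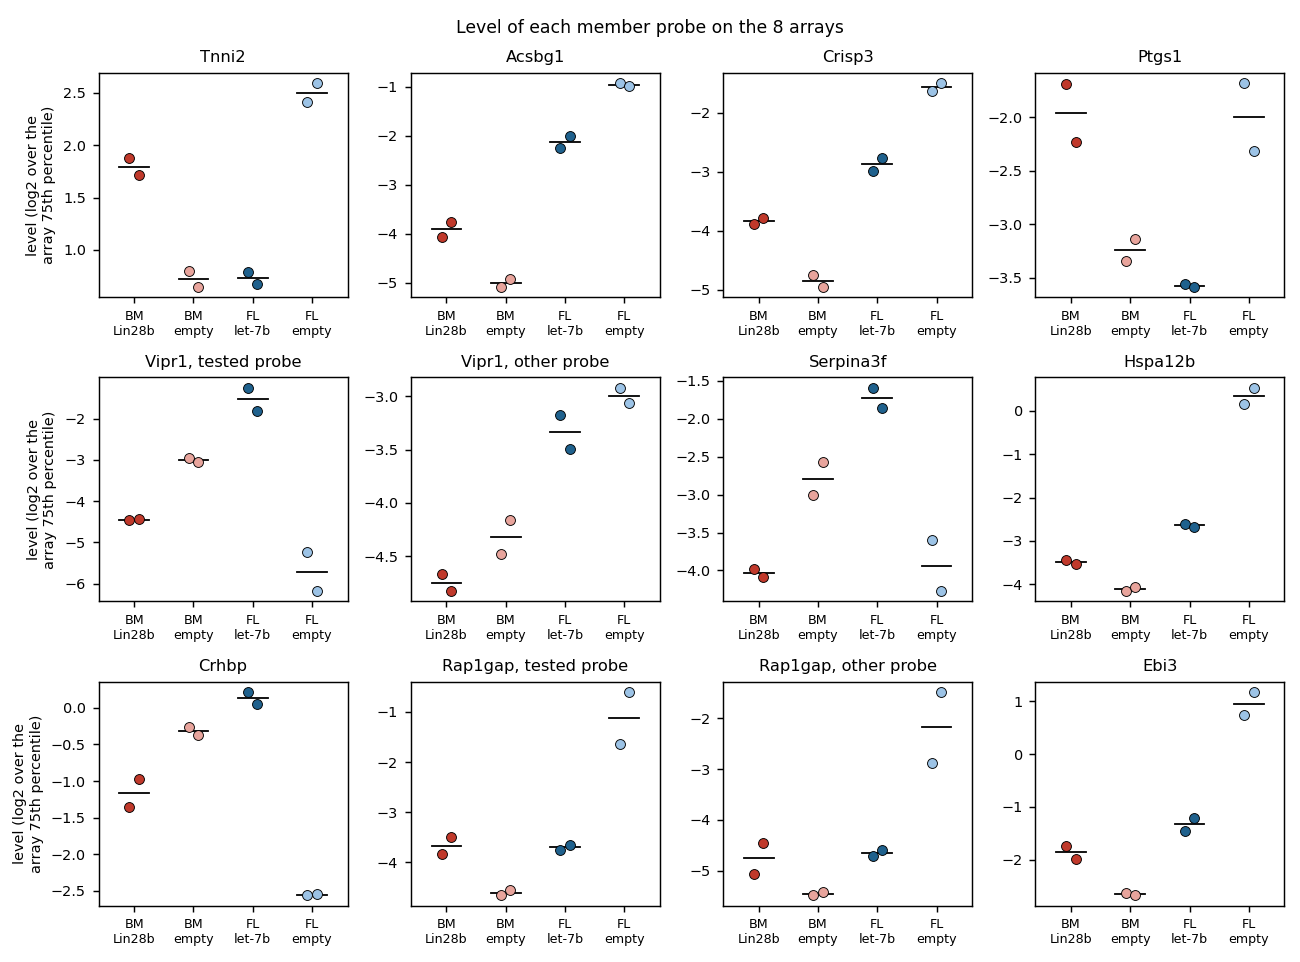
Level (log2 over the array's 75th percentile, y axis with its own range in each panel) of the 12 member probes on the 8 arrays; each point is an array, each bar a group mean of 2 arrays, and the groups are, from the left, BM Lin28b, BM empty vector, FL let-7b and FL empty vector. In 11 panels the transduced group lies on opposite sides of its empty vector in BM and FL; in the panel of the other Vipr1 probe it lies below in both.

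Among secreted proteins, Ebi3 stood higher with Lin28b and lower with let-7b. It encodes the subunit that pairs with p28 to form IL-27 and with the IL-12 p35 chain to form IL-35 (probe at chr17:56096309-56096368, mm9, plus strand). Its levels were -1.74 and -1.98 with Lin28b against -2.64 and -2.68 with empty vector in BM. In FL they were -1.46 and -1.21 with let-7b against 0.74 and 1.18 with empty vector. The groups were far apart in FL and closer in BM: the difference was 0.80 ± 0.20 with Lin28b (1.74-fold) and -2.30 ± 0.20 with let-7b (4.91-fold lower), at -2.20 on slide 2 and -2.39 on slide 3. FL cells with let-7b still stood above BM empty-vector cells, by 1.33 (0.99 after quantile normalization).

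Crhbp, a secreted protein that binds corticotropin-releasing hormone and urocortin, showed the reverse pattern. With Lin28b its levels were -1.36 and -0.97, against -0.26 and -0.37 with empty vector in BM. With let-7b they were 0.22 and 0.05, against -2.56 and -2.54 with empty vector in FL. The difference was -0.85 ± 0.17 with Lin28b (1.80-fold lower) and 2.69 ± 0.17 with let-7b (6.44-fold higher), with 2.78 and 2.59 on the 2 slides. This was 1 of the 2 members called with let-7b, a call that was absent with the FL slide as a block and from which nothing is read. Its level with let-7b stood 0.45 above that of BM empty-vector cells (0.41 after quantile normalization).

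Crisp3, a cysteine-rich secretory protein (probe at chr17:40358752-40358811, mm9, minus strand), was dim on every array. It stood at -3.89 and -3.79 with Lin28b against -4.75 and -4.95 with empty vector in BM, and at -2.99 and -2.77 with let-7b against -1.64 and -1.51 with empty vector in FL. The groups did not overlap in either tissue, with differences of 1.01 ± 0.15 (0.51 with normexp) and, on slides 2 and 3 together, -1.30 ± 0.15 (-1.35 and -1.26 by slide). Its processed signal was 61.4 and 68.7 with let-7b against 155 and 95.6 with empty vector in FL, and with the normexp background correction the let-7b difference was -0.11.

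Serpina3f belongs to a gene cluster of the serpin family of protease inhibitors that is expanded in mice. Its levels were -3.98 and -4.09 with Lin28b against -3.01 and -2.58 with empty vector in BM, and -1.59 and -1.85 with let-7b against -3.60 and -4.27 with empty vector in FL. Lower with Lin28b and higher with let-7b, Serpina3f differed by -1.24 ± 0.28 (2.37-fold lower) and by 2.21 ± 0.28 (4.64-fold higher). Lin28b cells minus FL empty-vector cells came to -0.10, which turned to 0.78 after quantile normalization, and let-7b cells minus BM empty-vector cells to 1.07 (0.70).

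Vipr1 encodes VPAC1, a G protein-coupled receptor for vasoactive intestinal peptide and PACAP, and its result depended on the probe. On the tested probe the levels were -4.46 and -4.45 with Lin28b against -2.95 and -3.05 with empty vector in BM. In FL that probe stood at -1.25 and -1.81 with let-7b against -5.23 and -6.19 with empty vector. The differences were -1.45 ± 0.35 and 4.18 ± 0.35, but the FL empty-vector side lay near background: the processed signals there were 12.9 and 3.72, and the second was not well above background (lowest such signal on that array 12.1). With signals under that floor raised to it, the let-7b difference was 3.33, with the normexp correction 1.75, and 1.86 in the authors' deposited table.

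The other Vipr1 probe did not show the mirrored pattern. It stood at -4.67 and -4.83 with Lin28b against -4.48 and -4.16 with empty vector in BM, and at -3.18 and -3.49 with let-7b against -2.92 and -3.07 with empty vector in FL. Its differences were -0.43 ± 0.19 with Lin28b and -0.34 ± 0.19 with let-7b, of the same sign, and it was well above background on all 8 arrays. Between FL and BM empty-vector cells the 2 probes also ran in opposite directions, at -2.71 ± 0.35 on the tested probe (-1.86 with that floor) and 1.33 ± 0.19 on the other. Which transcript each probe reads was not tested.

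Rap1gap encodes a GTPase-activating protein that switches off Rap1, a small GTPase of integrin adhesion. Its tested probe stood at -3.85 and -3.49 with Lin28b against -4.67 and -4.56 with empty vector in BM, and at -3.75 and -3.65 with let-7b against -1.64 and -0.60 with empty vector in FL. The FL empty-vector arrays had an SD of 0.74 (n = 2), the widest of any group among the members' tested probes, yet both lay above every other array. Differences were 0.94 ± 0.35 with Lin28b and -2.58 ± 0.35 with let-7b, at -2.11 on slide 2 and -3.05 on slide 3. The overlapping probe gave 0.69 ± 0.47 and -2.48 ± 0.47.

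Of the 2 enzymes, Ptgs1 (COX-1, which makes the prostaglandin precursor from arachidonic acid; probe at chr2:36105892-36105951, mm9, plus strand) stood higher with Lin28b and lower with let-7b. Its levels were -1.69 and -2.23 with Lin28b against -3.35 and -3.14 with empty vector in BM, and -3.56 and -3.59 with let-7b against -1.68 and -2.32 with empty vector in FL. The differences were 1.29 ± 0.28 (2.44-fold) and -1.58 ± 0.28 (2.98-fold lower). Set across the tissues, Lin28b cells minus FL empty vector came to 0.04 (0.41 after quantile normalization) and let-7b cells minus BM empty vector to -0.33 (-1.05 after quantile normalization). Signals in FL were low, at 41.3 and 38.8 with let-7b against 151 and 54.5 with empty vector, and the normexp correction shrank the let-7b difference to -0.12.

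Acsbg1, a bubblegum-family acyl-CoA synthetase that activates long-chain fatty acids, stood at -4.06 and -3.77 with Lin28b against -5.09 and -4.93 with empty vector in BM. In FL it stood at -2.25 and -2.00 with let-7b against -0.93 and -0.99 with empty vector. No array of one group reached the other, with differences of 1.10 ± 0.17 and -1.17 ± 0.17, or 0.57 and -0.33 with normexp. The probe lies at chr9:54453010-54453069 (mm9, minus strand). These differences were small beside the distance between the tissues, which was 4.05 ± 0.17 between the empty-vector groups. FL cells with let-7b thus remained 2.88 above BM empty-vector cells (2.20 after quantile normalization).

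Hspa12b is a distant member of the HSP70 chaperone family known from endothelial cells. It stood at -3.44 and -3.52 with Lin28b against -4.16 and -4.06 with empty vector in BM, and at -2.60 and -2.67 with let-7b against 0.15 and 0.53 with empty vector in FL. Its Lin28b difference of 0.63 ± 0.17 (1.55-fold) was the smallest of the 10 on this scaling. Its let-7b difference of -2.98 ± 0.17 (7.86-fold lower) was the other one called among the members, again not with the FL slide as a block. With normexp the Lin28b and let-7b differences were 0.38 and -1.49. Of 11 endothelial markers, 8 were tested and 3 (Esam, Tek, Tie1) were not well above background on any array; the summed level was 12.3 to 14.2 with Lin28b and 14.7 to 15.1 with empty vector in BM, and 21.4 to 24.4 with let-7b and 25.6 to 39.1 with empty vector in FL. The markers' part in the Hspa12b values was not tested.

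Tnni2, the inhibitory troponin I subunit of fast skeletal muscle, stood higher with Lin28b and lower with let-7b. Its levels were 1.88 and 1.72 with Lin28b against 0.80 and 0.65 with empty vector in BM, and 0.79 and 0.67 with let-7b against 2.41 and 2.59 with empty vector in FL. The differences were 1.07 ± 0.14 (2.10-fold) and -1.77 ± 0.14 (3.41-fold lower), and the level with let-7b lay 0.01 from that of BM empty-vector cells (0.02 after quantile normalization).

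**Figure D2:**
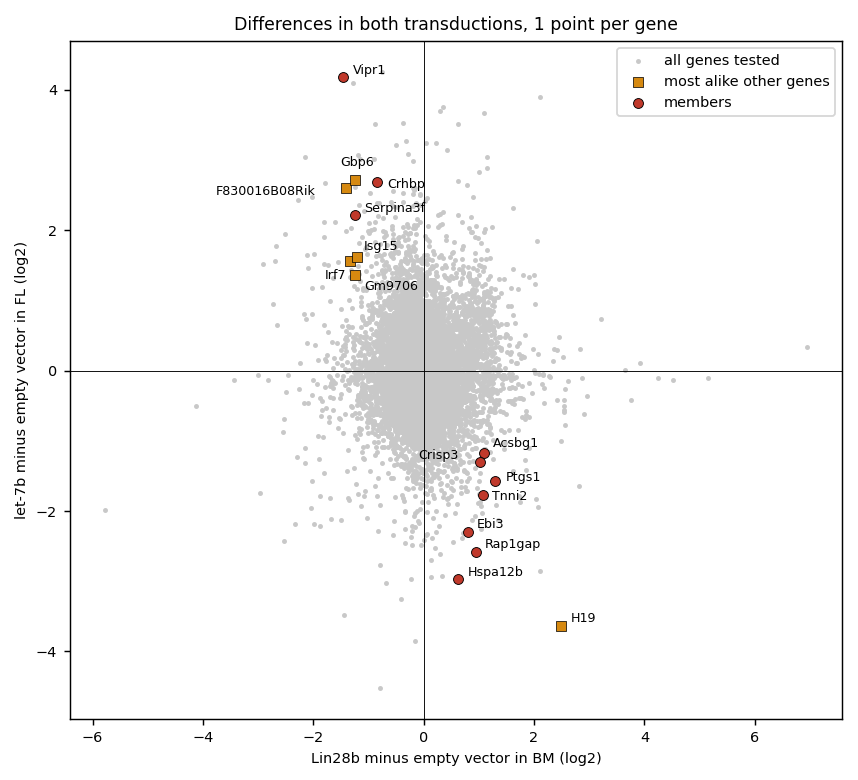
Difference with let-7b in FL (y axis, log2) against difference with Lin28b in BM (x axis, log2) for the 22927 genes tested; red circles are the 10 members, orange squares the 6 other genes named by the rule on opposite differences (of 1582 with a symbol, no overlap and signal in the higher groups), grey points all genes. The members lie in the upper left (3) and lower right (7), by choice, and over all genes 49.8% had opposite signs.

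Over all genes the differences in the 2 transductions had a Spearman correlation of -0.03 (22927 genes measured on the same arrays, a description), and 11421 genes (49.8%) had opposite signs. Opposite differences of at least 2-fold in both, with no overlap, were present in 52 genes: 19 up with Lin28b and down with let-7b (0.0829%) and 33 down with Lin28b and up with let-7b (0.144%). Of the 10 members, 6 were among these 52, and Hspa12b, Crhbp, Rap1gap and Ebi3 missed 2-fold with Lin28b. The count of 52 was 10 with normexp and 15 in the authors' deposited table, where Vipr1 was the 1 member among them in each, and 44 to 105 without 1 array (105 without FL empty vector replicate 1). Ranked by the smaller of the 2 differences among all genes of opposite sign, the members ran from 25 (Vipr1) to 335 (Hspa12b).

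Among 1582 other genes with a symbol, opposite signs, no overlap and a signal well above background in both higher groups, the 6 with the largest smaller difference were H19, F830016B08Rik, Irf7, Gm9706, Gbp6 and Isg15. H19, an imprinted noncoding RNA of fetal tissues, stood first of all genes. Its levels were 4.71 and 4.61 with Lin28b against 2.28 and 2.06 with empty vector in BM, and 4.13 and 4.12 with let-7b against 7.60 and 7.92 with empty vector in FL. The differences of 2.49 ± 0.16 and -3.63 ± 0.16 were both larger than those of the 7 members with the same direction on this scaling. Arid3a, the transcription factor in the title of the series, had 1.07 ± 0.16 and -0.96 ± 0.16, close to the values of Acsbg1.

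The other 5 stood lower with Lin28b and higher with let-7b, as Vipr1, Serpina3f and Crhbp did. Irf7 (differences -1.33 ± 0.67 and 1.57 ± 0.67), Isg15 (-1.21 ± 0.62 and 1.61 ± 0.62) and Gbp6 (-1.25 ± 1.01 and 2.71 ± 1.01) are interferon-induced genes. F830016B08Rik differed by -1.41 ± 0.45 and 2.61 ± 0.45, and Gm9706 by -1.25 ± 0.55 and 1.36 ± 0.55. Whether these also belong to the interferon response was not tested. Of 28 interferon response genes tested, 0 had a positive difference with Lin28b (median -0.86) and 27 had one with let-7b (median 1.46), with 0 called by limma in either (4 and 13 at an unadjusted p under 0.05); over all genes the medians were -0.04 and -0.06. The median level of this list was -0.53 and -0.67 with Lin28b against 0.12 and 0.52 with empty vector in BM, and 1.14 and 1.01 with let-7b against 0.53 and -1.33 with empty vector in FL. Its median let-7b difference was 0.57 on slide 2 and 2.19 on slide 3, while within the same slides Serpina3f differed by 2.01 and 2.42, Vipr1 (tested probe) by 3.98 and 4.38 (2.68 on slide 3 with the dim signal at the floor), and Crhbp by 2.78 and 2.59. The part of the interferon response in the 3 members' values was not tested.

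Stromal cell markers were mostly positive in both transductions. Of 18 stromal markers (OP9 cells included), 16 were tested, and 14 had a positive difference with Lin28b (median 1.05) and 12 with let-7b (median 0.86), with 0 called by limma (8 and 4 at an unadjusted p under 0.05). Lum and Postn were not well above background on any array, and the summed level was 27.6 to 38.7 with Lin28b and 19.01 to 20.8 with empty vector in BM, and 9.13 to 15.2 with let-7b and 7.13 to 8.83 with empty vector in FL. The 7 members higher with Lin28b had this list's sign in BM and the opposite sign in FL; its part in their values was not tested. For Ebi3, a gene also of dendritic cells, the dendritic list had 1 of 7 tested markers positive with Lin28b and 4 with let-7b, and Clec9a and Xcr1 were not well above background on any array. Its summed level was 65.9 to 77.4 with Lin28b and 85.4 to 86.9 with empty vector in BM, and 235 to 275 with let-7b and 225 to 242 with empty vector in FL.

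The levels were next set side by side between the empty-vector cells of the 2 tissues. This comparison shares its empty-vector arrays with both transductions, so the choice of the members partly fixes its direction and it is no independent support. Tissue, slide, scan date and vector (pMIG in BM, MSCV in FL) cannot be told apart in this comparison. In it, 7 members were higher in FL (background 40.1% of all genes) and 3 lower in FL (background 19.5%), all 10 called by limma with adjusted p of 0.000293 to 0.0150. The 7 were those higher with Lin28b and lower with let-7b, and the 3 were Vipr1 (tested probe), Serpina3f and Crhbp. The median gene of this contrast stood at 0.52 (0.05 after quantile normalization), and 67.3% of all calls were higher in FL (49.4% after quantile normalization); all 10 members kept their direction under it. Ptgs1 was then not called (0.75, limma adjusted p = 0.0706). It was also not called without BM empty vector replicate 1, Serpina3f was not called without BM empty vector replicate 2, and neither they nor Vipr1 were called with normexp, which left 7 members called.

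The size of the tissue difference varied among the members. Hspa12b differed most, by 4.45 ± 0.17 (21.8-fold higher in FL), followed by Acsbg1 (4.05 ± 0.17), Ebi3 (3.62 ± 0.20), Rap1gap (3.49 ± 0.35) and Crisp3 (3.28 ± 0.15). Tnni2 (1.78 ± 0.14) and Ptgs1 (1.24 ± 0.28) differed less. Among the members lower in FL, Vipr1 differed by -2.71 ± 0.35 (-1.86 with the FL signal that was not well above background raised to the lowest one that was), Crhbp by -2.24 ± 0.17 and Serpina3f by -1.14 ± 0.28. Ebi3 and Rap1gap, next to each other in this order, differed by less than their standard errors.

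**Figure D3:**
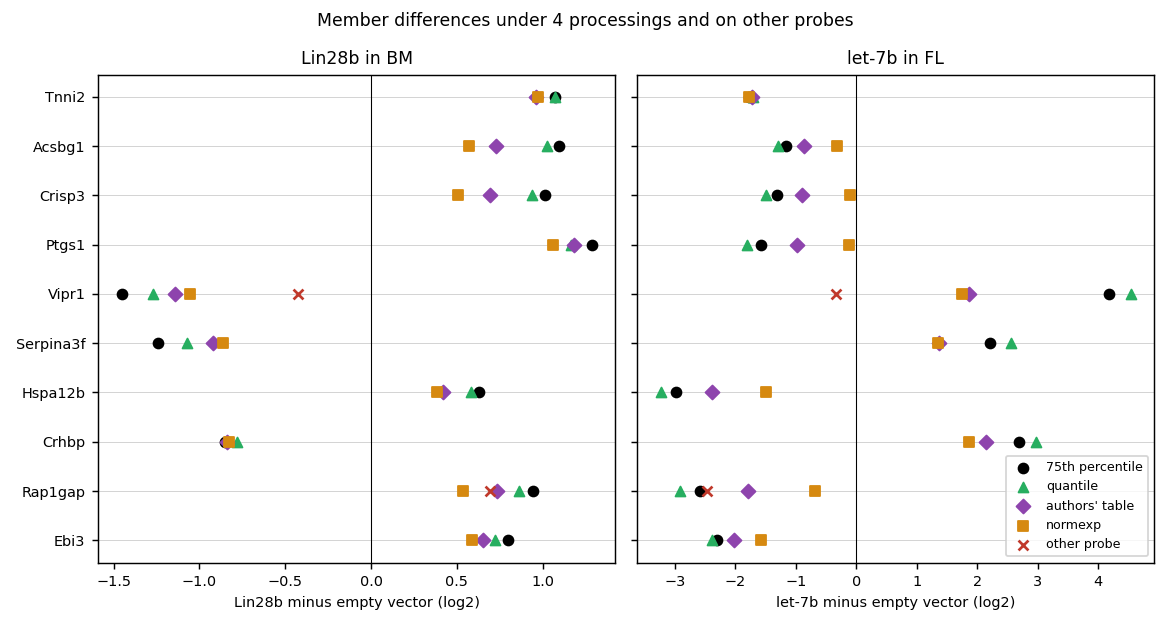
Difference (log2, x axis) of each member with Lin28b in BM (left) and let-7b in FL (right) under the 75th percentile scaling, quantile normalization, the authors' deposited table and the normexp correction, with the other probe of Vipr1 and Rap1gap as crosses. Only the other Vipr1 probe lies across 0 from the tested probe, and normexp brings Crisp3 and Ptgs1 close to 0 with let-7b (-0.11 and -0.12).

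Other treatments of the values were compared because the members' FL signals were low. On the tested probes, 0 of 260 differences under 14 alternatives changed sign, which the choice of members favours. Leaving out 1 array or comparing within a slide could not change a sign, since the groups of no member overlapped. The size was less stable: with let-7b, normexp gave -0.33 for Acsbg1, -0.69 for Rap1gap, -1.49 for Hspa12b and 1.36 for Serpina3f. Tnni2 was -1.77 under it as under the main scaling. Of the 12 member probes, 11 were well above background on all 8 arrays and none had a saturated or outlier spot. Without the dim array of FL empty vector replicate 2, the let-7b differences were -1.89 for Ptgs1, 3.70 for Vipr1 (tested probe), 1.88 for Serpina3f, -2.78 for Hspa12b, 2.70 for Crhbp, -2.06 for Rap1gap and -2.07 for Ebi3, each within 1.5 times the value with all arrays, as were those of Tnni2 (-1.68), Acsbg1 (-1.20) and Crisp3 (-1.24). Within the 2 slides the remaining members differed by -1.62 and -1.92 (Tnni2), -1.32 and -1.01 (Acsbg1), -1.88 and -1.27 (Ptgs1) and -2.75 and -3.20 (Hspa12b).

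Relatives of the members, taken by family and pathway, were compared in the same fits. Of 110 relatives listed, 80 were tested, and 0 were called with Lin28b or with let-7b in either direction by limma (all genes 0% and 0.0305%). An unadjusted limma p under 0.05 was present in 5 and 10 of the 80. Opposite signs were present in 37 of the 80, and the medians were -0.06 with Lin28b and -0.02 with let-7b, beside -0.04 and -0.06 over all genes. Between FL and BM empty-vector cells 24 of the 80 were called higher in FL and 20 lower (all genes 40.1% and 19.5%, a split that depends on the scaling as given above), with a median of 0.11 beside 0.52 over all genes.

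Partners of the signalling members were not called in either transduction, as almost no gene was (0% of all genes with Lin28b, 0.0305% with let-7b). The lack of a call thus does not show that their levels were unchanged. Il27, the p28 chain that joins Ebi3, differed by -0.06 ± 0.24 with Lin28b and -0.26 ± 0.24 with let-7b, and was higher in FL by 1.67 ± 0.24 (limma adjusted p = 0.00272). Il6st, the gp130 receptor chain, differed by -0.04 ± 0.18 and 0.17 ± 0.18. Vipr2, the second receptor of the same peptides, differed by -0.06 ± 0.23 and 0.47 ± 0.23 and was lower in FL, at -1.65 ± 0.23 (limma adjusted p = 0.00238). Sctr, listed with it, differed by -0.15 ± 0.16 and -0.03 ± 0.16 and was higher in FL, by 1.12 ± 0.16 (limma adjusted p = 0.00252). The receptors Crhr1 (-0.04 ± 0.28 and -0.29 ± 0.28) and Crhr2 (-0.21 ± 0.56 and -0.69 ± 0.56) of the hormone that Crhbp binds had the same sign in both transductions and were higher in FL, by 1.12 ± 0.28 and 3.87 ± 0.56.

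Relatives of the enzymes and of the remaining members were likewise uncalled in both transductions, beside the same low shares over all genes. Ptges, the prostaglandin E synthase downstream of Ptgs1, differed by -0.04 ± 0.12 and -0.09 ± 0.12. Of 14 prostanoid genes tested, 4 were higher and 2 lower in FL. Of 10 fatty acyl-CoA synthetases, 4 were higher and 3 lower in FL, Acsl1 differing by -0.07 ± 0.14 with Lin28b and 0.38 ± 0.14 with let-7b. Among 12 HSP70 genes, 1 was higher (Hspa8, 1.52 ± 0.21) and 9 were lower in FL (all genes 40.1% and 19.5%, with a more even split after quantile normalization), whereas Hspa12b was higher. Of 17 genes of the Rap cycle, 3 were higher and 2 lower in FL, and Sipa1, which encodes another Rap GTPase-activating protein, differed by -0.02 ± 0.14 and -0.21 ± 0.14. Of 6 troponin genes, 1 was higher in FL (Tnnt1, 2.02 ± 0.12) and 1 lower (Tnnt2, -2.18 ± 0.35, not well above background on any FL array). Tnnt1 differed by 0.14 ± 0.12 with Lin28b and -0.17 ± 0.12 with let-7b, and Tnnt2 by -0.20 ± 0.35 and -0.19 ± 0.35.

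In the Serpina3 cluster, Serpina3g had the signs of Serpina3f. Serpina3g, an inhibitor known to be induced by interferon, stood at 0.84 and 0.45 with Lin28b against 1.48 and 1.60 with empty vector in BM, and at 1.74 and 2.21 with let-7b against -1.45 and -0.62 with empty vector in FL. The groups overlapped in neither tissue, with differences of -0.89 ± 0.33 and 3.01 ± 0.33 (limma adjusted p = 0.0666 with let-7b). Serpina3i, named after its values were seen, differed by -0.92 ± 0.15 and 0.90 ± 0.15. Serpina3h and Serpina3b, in the same cluster, did not mirror: they differed by -0.07 ± 0.16 and -0.13 ± 0.17 with Lin28b, and by -0.52 ± 0.16 and -0.08 ± 0.17 with let-7b. The Serpina3f probe (chr12:105458989-105459048, plus strand, mm9) matched those of Serpina3g and Serpina3i in at most 22 of 60 bases without gaps, though its match to their whole transcripts was not analysed here; its first 30 bases are shown for that reason.
Serpina3f: aaggtttaagaagggaacctgcaactgtgg

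**Figure D4:**
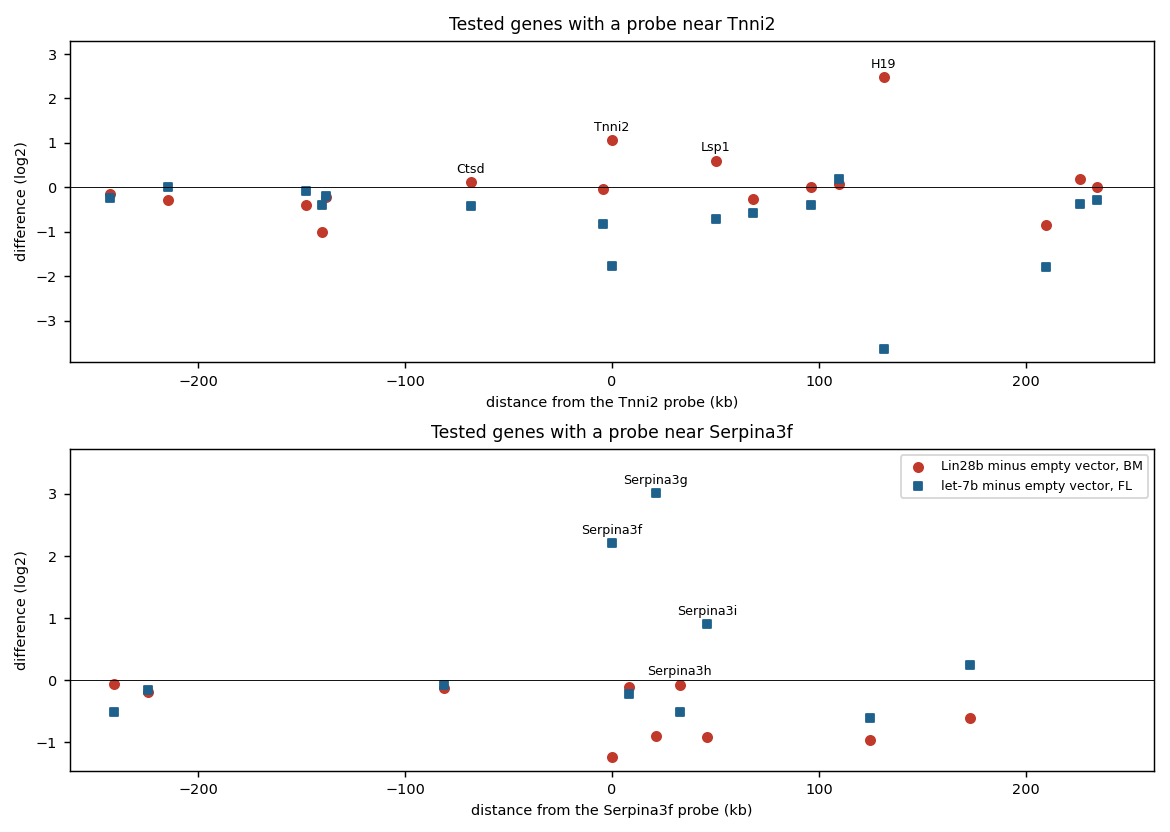
Difference (log2, y axis) with Lin28b in BM (circles) and let-7b in FL (squares) of tested genes whose probe starts within 250 kb of the Tnni2 probe (top) or the Serpina3f probe (bottom), by distance in kb (x axis). H19 lies 131 kb from Tnni2 with differences of 2.49 and -3.63, and Serpina3g and Serpina3i lie 21.1 and 45.7 kb from Serpina3f.

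Positions of the probes (mm9) placed the members on 7 chromosomes. Within 250 kb of the 10 members lay 100 other tested genes, and 1 of them had opposite differences of at least 2-fold with no overlap: H19 (chr7:149761492-149761551), 131 kb from the Tnni2 probe (chr7:149630251-149630310, plus strand). Lsp1, a leukocyte actin-binding protein gene whose probe lies between them at 50.2 kb from Tnni2, differed by 0.60 ± 0.22 with Lin28b and -0.71 ± 0.22 with let-7b, with groups that did not overlap in either tissue. Opposite signs without overlap were present in 9.24% of all genes, so Lsp1 alone says little about the neighbourhood. Not every gene of the interval had that pattern. Tnnt3 (68.2 kb, well above background on 6 arrays) differed by -0.26 ± 0.67 and -0.57 ± 0.67, too wide a spread to settle its signs. Mrpl23 (96.3 kb) differed by 0.00 ± 0.24 and -0.41 ± 0.24. F2r, 170 kb from the Crhbp probe, also had opposite signs without overlap (0.95 ± 0.36 and -1.10 ± 0.36), the reverse of Crhbp. Lsp1, Tnnt3, Mrpl23 and F2r were named after their values were seen, and the Tnni2 probe is shown because its neighbourhood is described.
Tnni2: aagcacccaacatccagtctgggagtactt

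The promoters of 9 members (16 start sites, 250 bases before to 50 after each start, RefSeq, GRCm38.p6) were searched on both strands for ATTAAA, the core of the known ARID3A motif. It was in 1 of the 16, the first start site of Serpina3f, and in 13.9% of all 32851 promoters. These are letter matches only.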

How the data were processed

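RNA of 8 samples was hybridised to 1-colour (Cy3) Agilent arrays, 2 per group. The deposited scanner files hold spot intensities, background-subtracted by Agilent Feature Extraction 9.5.3.1, per the file headers. A table of log2 values deposited by the authors (normalization: not given in the sources used here) was used within a tissue only, since its column medians were 7.22 on BM and 6.16 on FL arrays. From the processed signal, log2 minus the log2 of the array's 75th percentile was computed. Control spots (1377 of 44397) and 31 probes with an outlier spot were left out, as were 10989 probes well above background on fewer than 2 arrays. Of the 28409 probes kept, the brightest per gene was tested, 22927 in all. limma 3.58.1 (lmFit, eBayes; R 4.3.3, data.table, version 1.17.8) fitted 1 mean per group over the 8 arrays, with Benjamini-Hochberg adjustment over all genes and calls below 0.05. The smallest p of an exact permutation test of 2 against 2 arrays is 0.333, so calls rest on limma's pooling of the spread over genes, with 1.69 prior degrees of freedom. Figures and sequences used Python 3.11.15. Replicates are separate sorts, in FL also on separate slides and scan dates, and 1 spread per gene is fitted over all 8 arrays. The p-values thus rest on that pooled spread and not on the spread between sorts alone, and 2 arrays per group limit the precision.

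Genes were named by accession (19856 probes), symbol (1960) or synonym (563) from a RefSeq table of GRCm38.p6, and 6030 probes kept the file's name; positions come from the array design (mm9). The members and gene lists were chosen with earlier results of these data known. Named genes are all members with every probe, the 6 genes with the largest smaller difference among the 1582 that passed the rule on symbol, overlap and signal, and Lin28b. Relatives could be named if called in any comparison or among the 2 with the highest mean probe level of a family, but not all 44 called ones are. Hpgds, higher in FL by 3.55 ± 0.91, was left out for low signal (well above background on 2 arrays). It differed by 2.06 ± 0.91 with Lin28b and -1.94 ± 0.91 with let-7b. Serpina3i, Lsp1, Tnnt3, Mrpl23 and F2r were named after their values were seen. Arid3a (in the series title) and Rag1 (the strain) were added outside this rule. Groups sharing a number were checked for pairing by the correlation of their deviations from group means, -0.06 in BM and 0.52 in FL, where the number is also the slide. Marker lists of pro-B, stromal, endothelial, dendritic, myeloid, mast and basophil, T and NK, erythroid and hepatocyte cells and of the interferon response were read as summed levels; 1 listed pro-B marker is not reported here.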

Additional observations from a re-analysis of the deposited data

How the results depend on the processing

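The members were chosen for opposite signs on these arrays, so their signs are no sign of stability. They were opposite in 10 of 10 under quantile normalization, the normexp correction and the authors' deposited table. Without each array in turn they were also opposite in 10 of 10, which was fixed in advance, since the groups of no member overlapped. With the dimmest probe of each gene they were opposite in 9, Vipr1 being the exception. Counts of called genes moved with the setting, and the cause was not tested. Lin28b called 0 genes, 2 under quantile normalization, 3 in the authors' deposited table, and 1 each with only the 4 BM arrays, with trend and robust eBayes and with every kept probe, and 0 without any 1 array. let-7b called 7 genes (5 higher, 2 lower), 74 under quantile normalization (6 of them members), 85 with trend and robust eBayes (7 members), and 0 with normexp, the authors' deposited table, only the 4 FL arrays or no filter on dim probes. Leaving out 1 array gave 0 to 522 let-7b calls: 522, with 8 members, without FL empty vector replicate 1, and 0 without any other array, BM arrays included. With the replicate number, in FL the slide, as a block, Lin28b called 0, let-7b 0 (no member) and FL against BM 15332 genes; whether the numbers pair the sorts is not stated in the labels. FL against BM called 13657 genes, and 9050 to 14260 without 1 array, with the lowest count without BM empty vector replicate 1. Genes with opposite differences of at least 2-fold numbered 52, 10 with normexp, 15 in the authors' deposited table and 44 to 105 without 1 array, the counts over 1.5 times the main one being 93 and 101 without either FL let-7b array and 105 without FL empty vector replicate 1. Called relatives numbered 44, 51 with trend and robust eBayes and 41 under quantile normalization. Low signal limits the FL values, the lowest member signal there being 3.72. The levels set across tissues after quantile normalization, and the Vipr1 tissue difference at the floor, were chosen after seeing the data.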

Other observations

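Other marker lists are given by their levels, and their part in the members' values was not tested. The summed level of 18 myeloid markers, in units of the array's 75th percentile, was 90.6 to 98.8 with Lin28b and 96.4 to 98.5 with empty vector in BM, and 157 to 168 with let-7b and 138 to 194 with empty vector in FL. Of the mast cell and basophil list, 6 of 10 markers (Cma1, Cpa3, Fcer1a, Mcpt8, Ms4a2 and Tpsab1) were not well above background on any array. Hepatocyte markers summed to 0.846 to 0.910 with Lin28b and 0.856 to 1.03 with empty vector in BM, and to 2.98 to 3.29 with let-7b and 3.35 to 5.33 with empty vector in FL, and Alb, Apoa1, Fgb and Ttr were not well above background on any array. The T, NK and innate lymphoid list summed to 6.19 to 6.396 with Lin28b and 5.83 to 6.25 with empty vector in BM, and to 9.63 to 9.74 with let-7b and 10.6 to 15.1 with empty vector in FL. Erythroid markers summed to 3.67 to 3.85 with Lin28b and 4.10 to 4.19 with empty vector in BM, and to 4.27 to 4.60 with let-7b and 4.03 to 5.05 with empty vector in FL.

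Rag1, deleted in these mice, still gave a signal on its probe, at 0.56 and 0.70 with Lin28b against 0.66 and 0.65 with empty vector in BM, and at 3.53 and 3.09 with let-7b against 3.69 and 3.07 with empty vector in FL. Whether the probe lies within the deleted part is not known here, so its level checks nothing about the strain.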
